A study of Mus musculus with 6 samples.

Results

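The genes described here are 10 genes of the Hippo pathway, chosen by symbol from the 46983 genes of the deposited count table: Yap1, Wwtr1, Tead1, Tead2, Tead3, Tead4, Lats1, Lats2, Cyr61 and Ctgf. All 10 were found in the table, and all 10 passed the filter on low counts that left 17473 genes to be tested. RNA was sequenced from whole hearts of mouse embryos at E13.5, with 3 mutant hearts (replicates 1, 5 and 10) compared with 3 control hearts (replicates 2, 3 and 5). The comparison asks how the deletion of Wt1 in cells of the Tnnt2 lineage changed the transcripts of the heart. The strain of every embryo is given as C57BL/6 x DBA/2.

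Mutant embryos carried a Cre recombinase under the cardiac troponin T promoter and floxed Wt1 alleles (TnnT2Cre;Wt1flox in the labels). Control embryos are named wild type in the labels, but according to the study's methods both of their Wt1 alleles were also floxed and they lacked Cre. Cre is active in the myocardium of these embryos, and the study's lineage tracing also found it in a fraction of the epicardium. The floxed alleles were thus shared by both groups, and only the mutant embryos carried Cre. The methods give 3 embryos for each group, with 1 heart for each library. Beyond that, p-values measure only the spread between these libraries.

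Hippo signalling is a chain of kinases that restrains growth. The kinases LATS1 and LATS2 phosphorylate the coactivators YAP and TAZ (the product of Wwtr1), which are then held in the cytoplasm or degraded. Unphosphorylated YAP and TAZ enter the nucleus, where they bind DNA through the TEAD factors and activate genes such as Cyr61 and Ctgf. In the fetal heart the pathway is known for its control of cardiomyocyte division, and YAP and TAZ also act in the epicardium. Because YAP and TAZ are controlled largely at the protein level, the transcript levels given here say nothing about their phosphorylation or position in the cell.

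Each heart yielded between 44244665 and 56373393 counts on genes. Levels are given below as CPM (counts scaled to a common library size after TMM normalization), which compare a gene between hearts, and as FPKM, which also divide by a gene length. Control replicate 5 had the fewest counts and stood apart from the other hearts on the first principal component (at 55.4, against −34.3 to 8.51 in the other 5). Its CPM, taken on a log scale relative to each gene's mean over all hearts, also fell with gene length. Spearman's rho was −0.556 across 11795 genes, against 0.383 and 0.316 in the other control hearts. It was −0.0062, 0.464 and −0.0622 in mutant replicates 1, 5 and 10. Because the mean includes every heart, these rho values are relative and not independent of each other. In whole hearts, fewer cells of a type and less RNA per cell cannot be told apart. Wt1 itself was not a check of the labels, since a count over the whole gene and heart does not separate deleted from intact alleles. It averaged 30.9 CPM in control hearts and 28.9 CPM in mutant hearts.

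TEAD factors bind the hexamer GGAATG, which reads CATTCC on the other strand. The windows from 250 bases before to 50 bases after the start site (RefSeq, GRCm38.p6) were searched for it on both strands. Windows were given for 7 of the 10 genes (Yap1, Wwtr1, Tead2, Tead3, Lats1, Lats2 and Cyr61). Among these, 5 genes held at least 1 match, namely Yap1, Wwtr1, Tead3, Lats2 and Cyr61. For comparison, 14.7% of all 32851 windows held the hexamer, as did 16.6% of all 27025 genes with a window. A match is a description of the letters and not evidence of binding, and no match in these windows says nothing about sites elsewhere.

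Cyr61 and Lats2 are shown in full, since both are known YAP and TAZ targets and each has 1 match, given in capitals. The Cyr61 window lies at chr3:145649936-145650235 on the minus strand, where RefSeq names the gene Ccn1, and its match begins 103 bases before the start site. The Lats2 window lies at chr14:57746074-57746373 on the minus strand, and its match begins at base 5 of the transcript. A second Lats2 window held none.

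Cyr61: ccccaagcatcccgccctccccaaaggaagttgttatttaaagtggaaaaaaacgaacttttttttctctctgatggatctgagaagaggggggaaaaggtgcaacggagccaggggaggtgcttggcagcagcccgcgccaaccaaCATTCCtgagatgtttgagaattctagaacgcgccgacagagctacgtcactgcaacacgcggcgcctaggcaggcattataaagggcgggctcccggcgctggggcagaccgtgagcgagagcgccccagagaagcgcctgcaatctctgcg

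Lats2: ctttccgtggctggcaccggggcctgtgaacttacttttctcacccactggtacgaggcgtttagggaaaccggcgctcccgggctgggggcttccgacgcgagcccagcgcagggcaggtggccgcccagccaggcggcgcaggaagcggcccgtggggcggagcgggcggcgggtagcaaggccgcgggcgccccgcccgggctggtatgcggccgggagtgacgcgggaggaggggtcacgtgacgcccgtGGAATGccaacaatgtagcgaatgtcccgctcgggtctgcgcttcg

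Shorter stretches of 40 bases are shown for the other genes with a match, to place the hexamer (in capitals) in its surroundings. All of them are on the minus strand. The Yap1 match begins 141 bases before the start site in the window chr9:8004547-8004846. The Wwtr1 match was shared by 2 overlapping windows and begins 136 bases before the start site in chr3:57575861-57576160. The Tead3 stretch comes from chr17:28350551-28350850, the window with 3 matches, and shows the pair that begins 123 and 114 bases before the start site.

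Yap1: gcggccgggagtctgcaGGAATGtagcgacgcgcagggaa

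Wwtr1: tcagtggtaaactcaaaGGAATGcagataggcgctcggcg

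Tead3: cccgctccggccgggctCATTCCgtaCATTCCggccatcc

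Among the study's 6 hearts, none of the 10 genes passed the test between mutant and control hearts. At an adjusted p under 0.05 (edgeR, quasi-likelihood, Benjamini-Hochberg), 0 of the 10 were called, against a background of 0% of all genes tested. At an unadjusted p under 0.05 the same test called 0 of the 10, against 5.73% of all genes tested (3.14% with the mutant higher and 2.59% with it lower). The log2 fold change (mutant over control) was above 0 in 8 genes and below 0 in 2, with a median of 0.10, against −0.0010 over all genes tested. Without control replicate 5 it was above 0 in 4 genes and below 0 in 6, with a median of −0.040, so that the direction of the group as a whole depended on this heart. The mutant and control hearts did not overlap in 2 of the 10 (Wwtr1 and Cyr61, both higher in the mutant), where 11.2% of all genes tested did not overlap, 6.61% with the mutant higher and 4.59% with it lower. DESeq2, which called 0.677% of the genes it tested, also called 0 of the 10.

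**Figure D1:**
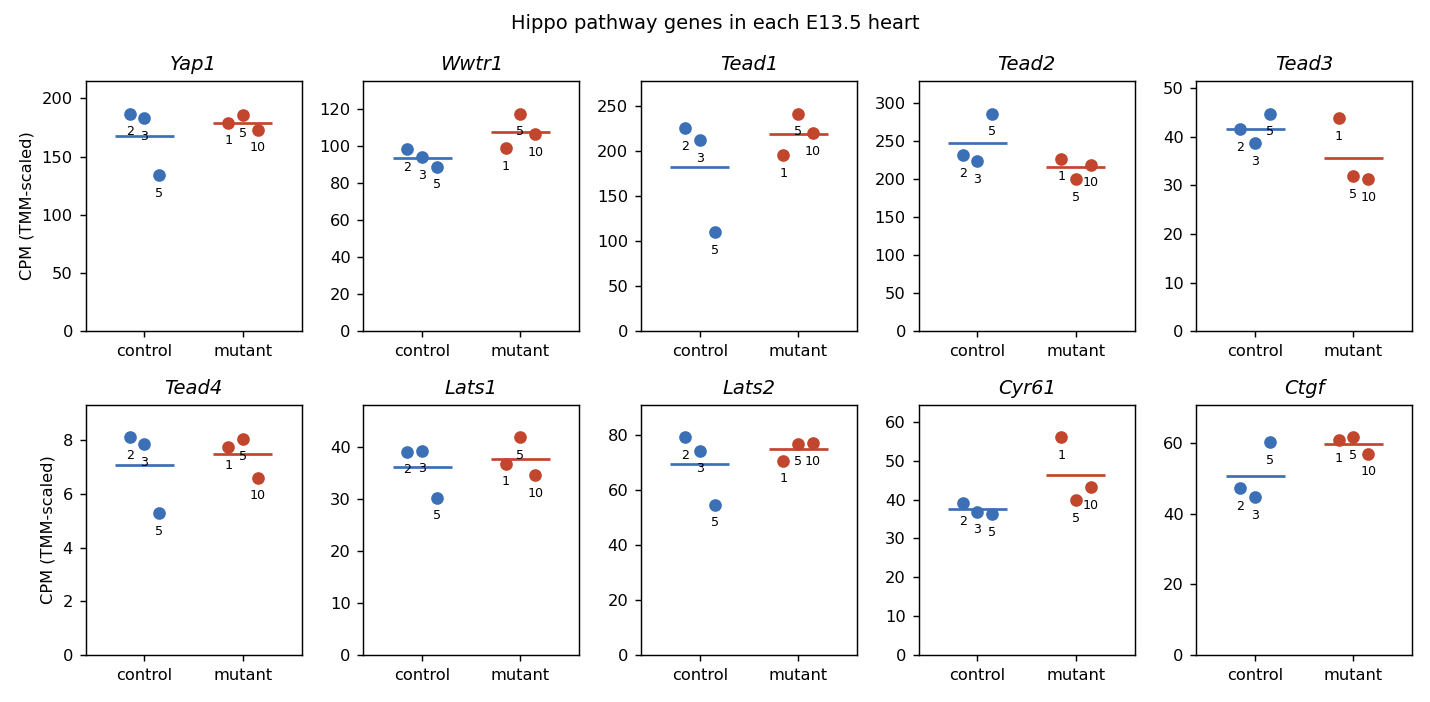
CPM of the 10 genes in each heart (vertical axes, linear, from 0), with controls in blue and mutants in red, each point marked with its replicate number and each bar at the group mean (n = 3). The groups overlap in every gene except Wwtr1 and Cyr61, and control replicate 5 is the lowest heart for Yap1, Wwtr1, Tead1, Tead4, Lats1, Lats2 and Cyr61.

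The coactivators are encoded by Yap1 (ENSMUSG00000053110, chr9:7931999-8004596, minus strand) and Wwtr1 (ENSMUSG00000027803, chr3:57455649-57575910, minus strand), with positions from GENCODE M21 on GRCm38. Yap1 stood at 187, 183 and 134 CPM in control replicates 2, 3 and 5, and at 179, 185 and 173 CPM in mutant replicates 1, 5 and 10. The lowest value was that of control replicate 5, and the other 5 hearts lay close together. The means were 168 ± 29.3 CPM in control and 179 ± 6.03 CPM in mutant hearts (SD, n = 3). The change of Yap1 on the log2 scale was 0.093 (SE 0.14, 95% interval −0.23 to 0.42, adjusted p = 0.985 in edgeR's quasi-likelihood test). It was −0.045 without control replicate 5.

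Wwtr1 stood at 98.2, 93.9 and 88.8 CPM in the control hearts and at 98.8, 117 and 106 CPM in the mutant hearts. Every mutant heart lay above every control heart, although mutant replicate 1 exceeded control replicate 2 by less than 1 CPM. For Wwtr1 the log2 fold change was 0.20 (SE 0.10, 95% interval −0.041 to 0.44, adjusted p = 0.939 in edgeR's quasi-likelihood test). It stayed between 0.12 and 0.26 in the fits that left out 1 heart. The log2 ratio of Yap1 to Wwtr1 within a heart was 2.00 ± 0.20 in control and 1.91 ± 0.11 in mutant hearts (SD, n = 3, FPKM scale), and an exact permutation test gave p = 0.6 (two-sided, where the smallest p possible is 0.1).

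The 4 TEAD genes encode the DNA-binding partners of YAP and TAZ, and none of them was called. Tead1 (ENSMUSG00000055320, chr7:112679318-112906807, plus strand) stood at 225, 212 and 109.6 CPM in control replicates 2, 3 and 5. In mutant replicates 1, 5 and 10 it stood at 195, 241 and 220.0 CPM. Control replicate 5 was far below the other 5 hearts, with 0.501 times the mean of the other control hearts, the lowest such ratio of the 10 genes. Tead1 had a log2 fold change of 0.26 with a wide interval (SE 0.25, −0.31 to 0.84, adjusted p = 0.985 in edgeR's quasi-likelihood test), and it was 0.0014 without control replicate 5. The shortfall in this heart was −0.996 on the log2 scale and remained at −0.92 after correction for the length trend, or at −0.57 when the trend was taken over annotated exon length.

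Tead2 (ENSMUSG00000030796, chr7:45215753-45233644, plus strand) behaved the other way in the same heart. It stood at 231, 223 and 286 CPM in the control hearts and at 227, 200 and 219 CPM in the mutant hearts, so that control replicate 5 was the highest. Its log2 fold change was −0.20 (SE 0.13, 95% interval −0.49 to 0.093, adjusted p = 0.966 in edgeR's quasi-likelihood test), and −0.081 without control replicate 5. Tead3 (ENSMUSG00000002249, chr17:28331671-28350817, minus strand) stood at 41.6, 38.7 and 44.8 CPM in the control hearts and at 43.9, 31.9 and 31.3 CPM in the mutant hearts. Mutant replicates 5 and 10 lay below all controls, whereas mutant replicate 1 lay among them. For Tead3 the log2 fold change was −0.22 (SE 0.15, 95% interval −0.56 to 0.12, adjusted p = 0.968 in edgeR's quasi-likelihood test), and without mutant replicate 1 it was −0.40 with an adjusted p of 0.691.

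Tead4 (ENSMUSG00000030353, chr6:128224288-128300823, minus strand) was the least abundant of the 10 genes, with 233 to 457 counts in each heart. Its CPM were 8.11, 7.86 and 5.29 in the control hearts and 7.75, 8.07 and 6.62 in the mutant hearts, with control replicate 5 again the lowest. Its log2 fold change was 0.076 (SE 0.19, 95% interval −0.37 to 0.52, adjusted p = 0.990 in edgeR's quasi-likelihood test). It was −0.094 without control replicate 5.

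The makeup of the TEAD pool was dominated by Tead2. The summed FPKM of the 4 genes was 341, 328 and 338 in the control hearts and 326, 309 and 299 in the mutant hearts. Tead2 made up 61.7% to 67.3% of this sum in 5 hearts and 79.8% in control replicate 5, while Tead1 made up 24.7% to 31.8% in the same 5 hearts and 13.1% in control replicate 5. Over all 6 hearts, Tead3 took 5.51% ± 0.696 and Tead4 1.49% ± 0.253 of the sum (SD, n = 6). The share of Tead1 was 22.3% in control and 28.2% in mutant hearts (exact permutation test, two-sided, p = 0.4), and that of Tead2 was 70.5% and 64.9% (p = 0.5 in the same exact test). These differences were smaller than the spread among the control hearts. When counts were divided by the length of all annotated exons, Tead2 still made up 67.9% of the pool, Tead1 21.1%, Tead3 8.12% and Tead4 2.87%.

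**Figure D2:**
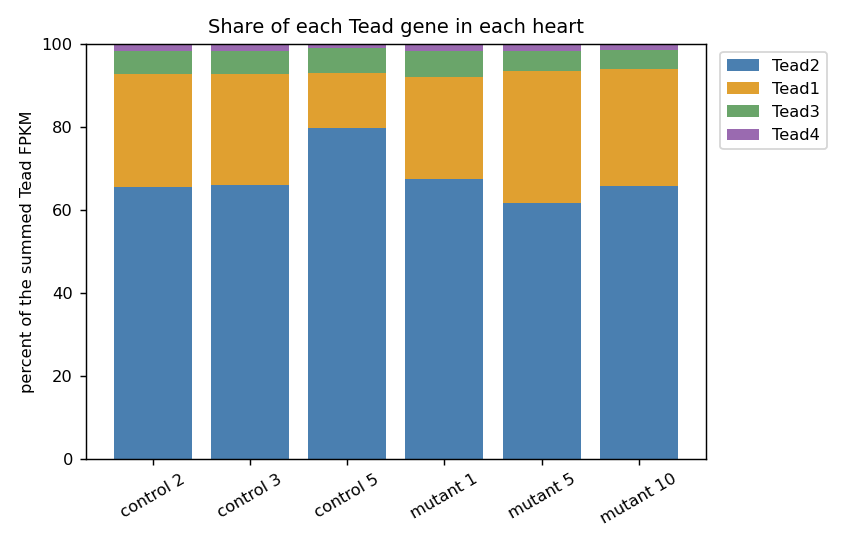
Share of each Tead gene in the summed FPKM of the 4 genes (vertical axis, percent), with 1 bar for each heart. Tead2 fills 61.7% to 67.3% of the bar in 5 hearts and 79.8% in control replicate 5, where Tead1 takes 13.1%.

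The kinases that phosphorylate YAP and TAZ are encoded by Lats1 (ENSMUSG00000040021, chr10:7681214-7716460, plus strand) and Lats2 (ENSMUSG00000021959, chr14:57689662-57758388, minus strand). Lats1 stood at 39.2, 39.4 and 30.3 CPM in the control hearts and at 36.9, 41.9 and 34.7 CPM in the mutant hearts. Lats2 stood at 79.2, 74.4 and 54.7 CPM in the control hearts and at 70.7, 77.0 and 77.2 CPM in the mutant hearts. For both kinases the groups overlapped and control replicate 5 was the lowest heart. The log2 fold changes were 0.060 for Lats1 (SE 0.14, 95% interval −0.25 to 0.37, adjusted p = 0.990) and 0.11 for Lats2 (SE 0.14, 95% interval −0.22 to 0.44, adjusted p = 0.985), both from edgeR's quasi-likelihood test. They were −0.054 and −0.035 without control replicate 5. In GENCODE M21, 42.4% of the exon bases of Lats2 are shared with Gm49361, a gene of the same strand. Gm49361 is not listed in the deposited counts, and whether the overlap affected the value of Lats2 was not tested.

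The target genes Cyr61 and Ctgf encode secreted matrix proteins of the CCN family, and both are standard readouts of YAP and TAZ activity. Cyr61 (ENSMUSG00000028195, chr3:145646976-145649981, minus strand) stood at 39.2, 36.9 and 36.4 CPM in the control hearts and at 56.1, 39.9 and 43.3 CPM in the mutant hearts. The groups did not overlap, although mutant replicate 5 lay only just above control replicate 2 and mutant replicate 1 lay well above all others. Its log2 fold change was 0.31 (SE 0.14, 95% interval −0.011 to 0.63, adjusted p = 0.895 in edgeR's quasi-likelihood test), the largest in size among the 10 genes. It was 0.15 without mutant replicate 1 and 0.40 without mutant replicate 5.

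Ctgf (ENSMUSG00000019997, chr10:24595442-24598683, plus strand) stood at 47.3, 44.8 and 60.2 CPM in the control hearts and at 60.9, 61.7 and 57.0 CPM in the mutant hearts. The 3 mutant hearts and control replicate 5 lay together, above control replicates 2 and 3. Ctgf had a log2 fold change of 0.24 (SE 0.13, 95% interval −0.060 to 0.54, adjusted p = 0.939 in edgeR's quasi-likelihood test). Without control replicate 5 it was 0.38 (SE 0.079), with an unadjusted p of 0.00114 and an adjusted p of 0.128 from the same edgeR test, in a fit in which 12.2% of all genes tested had an unadjusted p under 0.05. Over 14 alternative settings its adjusted p lay between 0.128 and 0.9999. Of the exon bases of Ctgf, 23.2% are shared with Gm15270 on the opposite strand, which had 19 to 30 counts in each heart against 2574 to 3233 for Ctgf. The strand setting is not given, and whether this overlap affected the value of Ctgf was not tested.

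**Figure D3:**
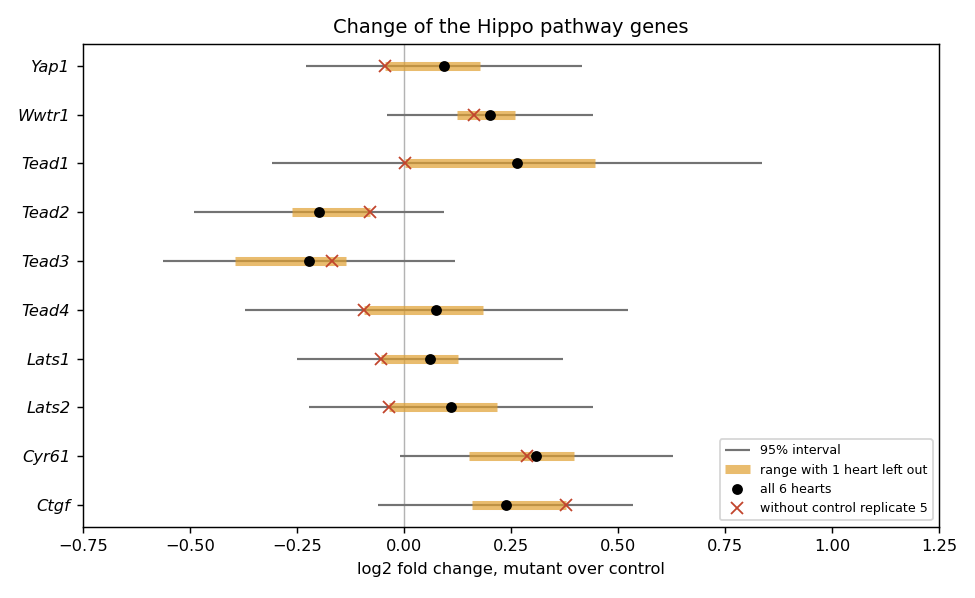
Log2 fold change of each gene, mutant over control (horizontal axis), with black points for all 6 hearts, grey lines for the 95% interval, orange bars for the range of the fits that left out 1 heart, and red crosses for the fit without control replicate 5. All 10 intervals include 0, and the crosses of Yap1, Tead4, Lats1 and Lats2 lie below 0.

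The ratio of Ctgf to Cyr61 did not separate the groups. On the log2 scale of FPKM it was 0.64 ± 0.26 in control and 0.59 ± 0.26 in mutant hearts (SD, n = 3, exact permutation test, two-sided, p = 0.9). The log2 ratio of Lats1 to Lats2 was −2.43 ± 0.08 and −2.49 ± 0.15 (SD, n = 3, p = 0.6 in the same exact test). Together with the ratio of Yap1 to Wwtr1 and the 4 Tead shares, 7 such measures were compared, and the adjusted p of these exact permutation tests lay between 0.7 and 0.9.

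Levels of different genes can be compared only per length, and the order of the 10 genes depended on which length was used. In the deposited FPKM, Tead2 was the highest at 219 ± 28.0, above 97.2% of all genes tested, followed by Yap1 (84.6 ± 10.5), Tead1 (81.3 ± 19.2), Lats2 (35.9 ± 4.58), Ctgf (31.7 ± 4.12), Wwtr1 (21.8 ± 2.11), Cyr61 (20.8 ± 3.77), Tead3 (17.9 ± 2.98), Lats1 (6.53 ± 0.817) and Tead4 (4.81 ± 0.811, SD over 6 hearts). Neighbours in this order kept it in all 6 hearts in 5 of 9 pairs, namely Tead2 over Yap1, Tead1 over Lats2, Ctgf over Wwtr1, Tead3 over Lats1 and Lats1 over Tead4. An exact sign-flip permutation test gave each of these p = 0.03125, the smallest that 6 hearts allow, or 0.0563 after adjustment over the 9 pairs. Since p could not go lower and the order was taken from the same hearts, the test cannot decide whether these pairs differ. The other 4 pairs (Yap1 and Tead1, Lats2 and Ctgf, Wwtr1 and Cyr61, Cyr61 and Tead3) did not differ beyond their spread.

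The length behind the deposited FPKM lay within 1 base of the mean transcript length of the gene for 76.0% of 26680 genes. It lay within 1 base of the length of all exons for 34.2%. Among the 16755 genes with 2 or more transcripts, where these lengths can differ, 66.9% matched the mean transcript length. The annotated exons of Tead1, Tead2 and Yap1 were 5.50, 4.55 and 4.51 times as long as the length behind the FPKM. Those of Wwtr1 and Cyr61 were 1.04 and 1 times as long. As CPM per kilobase of annotated exon, Tead2 again came first at 48.2, but Wwtr1 (21.05), Cyr61 (20.8), Ctgf (19.3) and Yap1 (18.7) followed, then Tead1 (14.8) and Lats2 (10.4). Tead3 (5.76), Lats1 (5.08) and Tead4 (2.02) remained the lowest. The excess of Yap1 over Wwtr1 in mean FPKM was thus not seen in the means per exon kilobase. The fold change of a single gene is not affected by this choice, since each gene keeps 1 length in every heart, but the Tead shares are. Per exon kilobase the mutant hearts differed from the control hearts by 5.12 percentage points for Tead1 (5.92 in FPKM), −4.73 for Tead2 (−5.53), −0.725 for Tead3 (−0.550) and 0.333 for Tead4 (0.158).

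**Figure D4:**
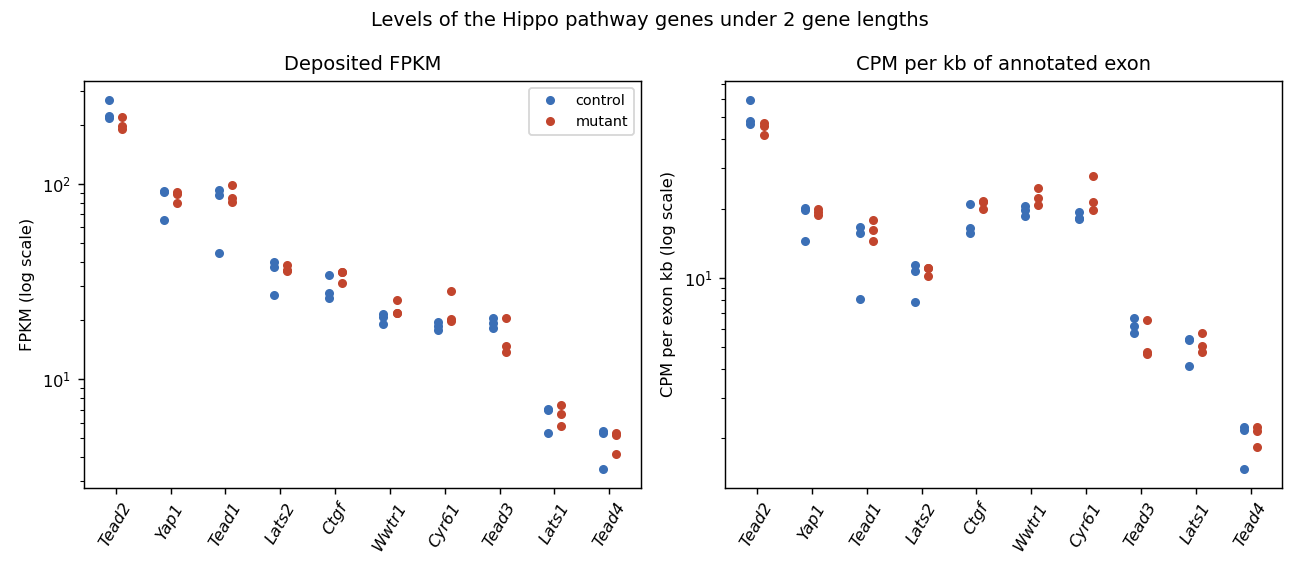
Levels of the 10 genes in each heart on log axes, with controls in blue and mutants in red, as deposited FPKM (left) and as CPM per kilobase of annotated exon (right). Tead2 is the highest and Tead4 the lowest in both panels, while Yap1 and Tead1 have means above those of Wwtr1, Cyr61 and Ctgf only on the left.

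Pairs of these genes were also compared across the 6 hearts, on the log2 CPM scale, over 5 pairs. Yap1 and Lats1 had a Pearson's r of 0.920 (exact permutation test, p = 0.00556, adjusted p = 0.0278) and a Spearman's rho of 0.829 (exact permutation p = 0.0583, adjusted p = 0.257). Without the 2 hearts farthest from the median of Yap1 (control replicate 5 and mutant replicate 10), r was 0.730. After correction for the length trend r was −0.218, or 0.898 without the 2 hearts then farthest (control replicates 5 and 2). With the trend taken over exon length r was 0.665. It was −0.687 without the 2 hearts then farthest (control replicate 5 and mutant replicate 1). The hearts left out thus differed between corrections. The relation thus depended on the correction and on the hearts used. Yap1 and Tead1 had an r of 0.969 (exact permutation p = 0.0417, adjusted p = 0.0995) and a rho of 0.771 (exact permutation p = 0.103, adjusted p = 0.257), with an r of 0.872 without 2 hearts. After the length correction r was 0.972, or 0.532 without 2 hearts. The hearts left out under each correction were the same as for Yap1 and Lats1. With the correction on exon length r was 0.911 and rho 0.143, and r was −0.0022 without the 2 hearts farthest from the median, so that the relation then rested on those hearts, control replicate 5 among them.

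Of the 5 pairs, Yap1 and Lats1 was the 1 that passed after adjustment, by r and not by rho. Lats1 and Lats2 had an r of 0.829 (exact permutation p = 0.0597, adjusted p = 0.0995) and a rho of 0.371 (exact permutation p = 0.497), and r was 0.0825 without the 2 farthest hearts. Yap1 and Wwtr1 had an r of 0.582 (exact permutation p = 0.260) and a rho of 0.314 (exact permutation p = 0.564). Cyr61 and Ctgf, the pair of target genes, had an r of 0.431 (exact permutation p = 0.460) and a rho of 0.429 (exact permutation p = 0.419), and r was −0.0719 for the deviations from the group means.

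Genes that act upstream of YAP and TAZ or hold them back were described next, from a list of 45. Of these, 44 were found under the symbol used and 42 were tested, with Fat2 and Vgll1 too low to test. edgeR's quasi-likelihood test called 0 of the 42, also at an unadjusted p under 0.05, where it called 5.73% of all genes tested. Log2 fold changes were above 0 in 28 and below 0 in 14, with a median of 0.068. Without control replicate 5 they were above 0 in 14 and below 0 in 28, with a median of −0.046. In that fit 7 of the 42 had an unadjusted p under 0.05 in edgeR's test with the mutant lower, and 0 with it higher. Over all genes tested 12.2% had one in either direction, and the share with the mutant lower alone was not computed. Of the core kinase cassette, Stk3 and Stk4 (the MST kinases) had log2 fold changes of −0.0072 and 0.12, and Sav1, their scaffold, had 0.064. Nf2, which encodes merlin, had 0.055.

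Among the proteins that hold YAP at junctions or in the cytoplasm, 5 of 6 genes were above 0. The log2 fold changes were −0.17 for Amot, 0.13 for Amotl2 and 0.26 for Ptpn14. Of the atypical cadherins and their modifier, 2 of 6 tested genes were above 0, and Fat3 was the lowest at −0.39 (SE 0.29). The groups did not overlap in 3 of the 42 genes, all higher in the mutant, namely Mob1a (0.17), Limd1 (0.16) and Vgll4 (0.18), where 6.61% of all genes tested did so. Vgll4 encodes a protein that competes with YAP for TEAD, and it stood at 73.9, 69.9 and 65.6 CPM in control and at 77.2, 76.5 and 83.9 CPM in mutant hearts.

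Vgll2, a TEAD cofactor of skeletal muscle, had the lowest log2 fold change of the list (−2.004, SE 1.19). The control hearts (2, 3 and 5) held 14, 124 and 6 counts of it, and the mutant hearts (1, 5 and 10) held 14, 19 and 0. The value rested on control replicate 3, and the fits that left out 1 heart gave −2.64 to 0.12. The same heart held 744 CPM of 5 hepatocyte markers, against 0.801 to 19.6 CPM in the other 5 hearts, and the part of other tissue in the Vgll2 value was not tested.

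The second list held 22 genes known as YAP and TAZ targets, of which 21 were tested and 3 (Lats2, Cyr61 and Ctgf) belong to the 10 genes above. Amotl2, Ptpn14 and Fjx1 are also in the upstream list, so that the lists are not separate. edgeR's quasi-likelihood test called 0 of the 21 at an adjusted p under 0.05. At an unadjusted p under 0.05 it called 1, where it called 5.73% of all genes tested. Log2 fold changes lay above 0 in 14 and below 0 in 7, with a median of 0.14. Without control replicate 5 it was above 0 in 9 and below 0 in 12, with a median of −0.020. The groups did not overlap in 5, with Cyr61, Axl and Ccdc80 higher in the mutant and F3 and Nt5e lower, where 11.2% of all genes tested did not overlap.

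Ccdc80, which encodes a secreted matrix protein, was the target with the largest difference. It stood at 122, 106 and 93.2 CPM in control and at 157, 161 and 168 CPM in mutant hearts, so that every mutant heart lay well above every control heart. Its log2 fold change was 0.60 (SE 0.12, unadjusted p = 0.00107, adjusted p = 0.300 in edgeR's quasi-likelihood test), and it lay between 0.51 and 0.71 when 1 heart was left out. DESeq2 called it, with an adjusted p of 0.00644. Ccdc80 is also expressed in mesenchymal cells, and of 8 mesenchymal markers 6 had a log2 fold change above 0 and 2 below, with a median of 0.13. Col1a1 (0.95) and Col1a2 (0.76) were the 2 with an unadjusted p under 0.05, while Postn stood at 0.054, Vim at 0.034, Lum at −0.095 and Pdgfra at −0.38. Tcf21, a factor of epicardium-derived fibroblasts from the epicardial list, had −1.10 (adjusted p = 0.113 in edgeR's quasi-likelihood test and 1.62e-07 in DESeq2). Of the 8 epicardial markers, 4 lay above 0 and 4 below, with a median of 0.0043. Upk1b (0.96) and Msln (0.61) were the 2 higher in the mutant at an unadjusted p under 0.05, and Tcf21 was the 1 lower. Over all genes tested 3.14% were higher and 2.59% lower at that threshold. The summed CPM of the 8 mesenchymal markers was 3178 to 4221 in control and 4159 to 5585 in mutant hearts, with control replicate 3 above mutant replicate 1, and the part of these cells in the Ccdc80 value was not tested.

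Ankrd1, a stress-responsive protein of cardiomyocytes and the most abundant of the named targets in CPM, stood at 717 ± 76.6 CPM in control and at 789 ± 93.4 CPM in mutant hearts (SD, n = 3), a log2 fold change of 0.14. Axl, a receptor tyrosine kinase, had 0.21 and Crim1 had 0.33 (SE 0.18). The lowest were Gadd45a (−0.40, SE 0.25) and Fjx1 (−0.31, SE 0.18). The TEAD hexamer was found in the start site window of 7 of the 15 target genes for which a window was given, namely Amotl2, Lats2, Cyr61, Ankrd1, Axl, Crim1 and Ptpn14.

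Of the other CCN genes, Nov and Wisp1 had log2 fold changes of 0.22 and 0.088 and Wisp3 had −0.49 (SE 0.44), while Wisp2 was too low to test. Because Cyr61 is also known as an immediate early gene, which responds within minutes to serum or tissue handling, 20 such genes were set beside it. Of the 20, 19 had a log2 fold change above 0, with a median of 0.28 (0.33 without control replicate 5), and 9 had an unadjusted p under 0.05 with the mutant higher, where 3.14% of all genes tested did so. After Benjamini-Hochberg adjustment edgeR called 0 of the 20. Fos averaged 3.68 CPM in control and 6.43 CPM in mutant hearts, Egr1 averaged 12.5 and 19.1 CPM, and the others of the 9 were Fosb, Egr2, Ier3, Klf6, Nr4a1, Zfp36 and Btg2. The summed level was 641, 610 and 653 CPM in control replicates 2, 3 and 5 and 698, 665 and 748 CPM in mutant replicates 1, 5 and 10. Cyr61 was highest in mutant replicate 1, and the immediate early sum, which abundant genes weigh most, in mutant replicate 10. Single genes differed in this. Egr1 was highest in mutant replicate 1 (22.5 CPM, against 18.0 and 16.8 CPM in replicates 5 and 10). Fos was highest in mutant replicate 10 (8.43 CPM, against 6.46 and 4.41 CPM in replicates 1 and 5). Whether an immediate early response took place or played a part in the Cyr61 value was not tested.

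**Figure D5:**
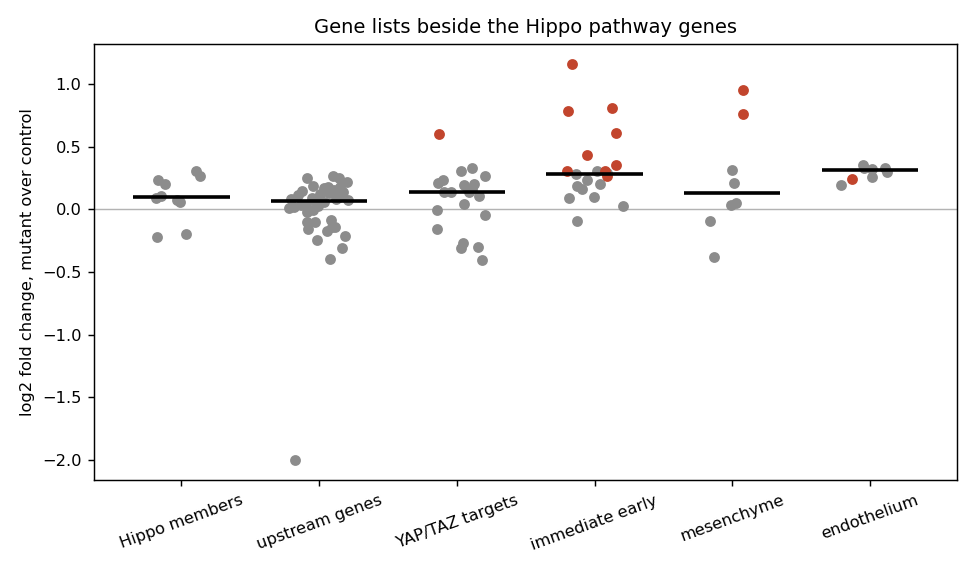
Log2 fold change, mutant over control (vertical axis), of every tested gene in 6 lists, with red points for an unadjusted p under 0.05, grey points for the others and black bars at each list's median. No Hippo pathway gene is red, 9 of 20 immediate early genes are red, and the lowest grey point is Vgll2 at −2.004.

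Markers of other cell types also differed between the hearts. All 8 endothelial markers had a log2 fold change above 0, and their sum was 844 to 1269 CPM in control and 1122 to 1419 CPM in mutant hearts. Of 7 macrophage markers, 6 were higher in the mutant at an unadjusted p under 0.05, where 3.14% of all genes tested were, with sums of 108 to 163 CPM in control and 192 to 201 CPM in mutant hearts. After adjustment edgeR called 0 of the 7 and DESeq2 called 2 (C1qa and C1qb). The sum of 8 cardiomyocyte markers was lowest in control replicate 5 (10453 CPM, against 12430 to 14960 CPM in the other 5 hearts), as were those of the epicardial (275 CPM, against 283 to 501 CPM) and endothelial markers. Erythroid markers summed to 37017 CPM in control replicate 5 and 38985 CPM in mutant replicate 10, against 11487 to 14445 CPM in the other 4. The erythroid sum of mutant replicate 10 was of similar size to that of control replicate 5. Mutant replicate 10 was the lowest mutant heart for Yap1 (173 CPM), Tead3 (31.3 CPM), Tead4 (6.62 CPM), Lats1 (34.7 CPM) and Ctgf (57.0 CPM). Wwtr1 (106 CPM), Tead1 (220.0 CPM), Tead2 (219 CPM) and Cyr61 (43.3 CPM) were not at their lowest there. Lats2 (77.2 CPM) was at its highest. The part of cell makeup in the levels of the 10 genes was not tested. None of the listed markers was at 3 counts or fewer in every heart.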

How the data were processed

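RNA from whole E13.5 hearts (1 heart for each library, 3 control and 3 mutant) was sequenced as paired reads. According to the study's methods, reads were aligned to the mouse genome mm10 with STAR and uniquely mapped reads were assigned to genes with featureCounts, while the submitters' processing notes name HTSeq and DESeq2. The strand setting is not given in the sources used here. The authors deposited a raw count for each gene and heart, and FPKM values, each being the count over 1 fixed gene length and over the heart's total. A table of the mean FPKM of each group was not used. Every per-sample column was mapped to a heart.

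Counts were compared with edgeR 4.0.16 (R 4.3.3, quasi-likelihood test, two-sided) after TMM normalization and the filterByExpr function (count minimum 10, total 15), with no covariates. Genes were called at an adjusted p (Benjamini-Hochberg) below 0.05. The standard error is the log2 fold change divided by the square root of F. Depth was 44244665 to 56373393 counts, and the precision is lowest for genes with few counts, such as Vgll2. No pair of libraries agreed within counting error. The fits were tested on simulated counts. Alternatives were DESeq2 1.42.0, limma 3.58.1 (voom, and a trend fit on log2 FPKM plus 1 or 0.1), other size factors, no filter, each heart left out, and a correction of the trend with gene length (local regression, span 0.5). The same correction on exon length, and CPM per exon kilobase, were added after seeing the data.

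The 10 genes and all gene lists were chosen with earlier results of these data known. Named genes are the 10 genes, and of the upstream and target lists those with an unadjusted p under 0.05, the 2 highest, the 2 lowest and a fixed set (Ankrd1, Axl, Vgll4, Nf2, Sav1, Stk3, Stk4, Amot and Amotl2). Of the CCN and immediate early lists, those with an unadjusted p under 0.05, Fos and Egr1 are named. Mob1a, Limd1, F3, Nt5e, the CCN genes and the genes too low to test were named after their values were seen. One gene that this rule names is not reported here. Positions come from GENCODE M21 on GRCm38, and start site windows from RefSeq.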

Additional observations from a re-analysis of the deposited data

How the results depend on the processing

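None of the 10 Hippo pathway genes and none of the upstream genes was called under any of the 14 alternative settings, and of the targets 1 (Ccdc80) was called by DESeq2 and 0 by the others. Over all genes, edgeR's quasi-likelihood test called 0, DESeq2 132, no filter on low counts 34, the length correction 13 and the exon length correction 9, and leaving out 1 heart gave 0 to 44, with 44 without control replicate 5. The log2 fold change reversed without control replicate 5 for Yap1 (−0.045), Tead4 (−0.094), Lats1 (−0.054) and Lats2 (−0.035), and for Lats1 also without mutant replicate 5 (−0.030) and with the length correction (−0.00078). With 1 heart left out, it lay between −0.045 and 0.18 for Yap1, −0.094 and 0.19 for Tead4, −0.054 and 0.13 for Lats1, and −0.035 and 0.22 for Lats2.

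Among the differences of ratios, Lats1 to Lats2 turned to 0.021 without mutant replicate 10 (range with 1 heart left out −0.12 to 0.021), Ctgf to Cyr61 to 0.11 without control replicate 5 and 0.087 without mutant replicate 1 (−0.17 to 0.11), and the Tead4 share to −0.034 percentage points without control replicate 5 (−0.034 to 0.259). With the length correction, r turned to −0.295 for Yap1 and Wwtr1, −0.389 for Lats1 and Lats2, and −0.218 for Yap1 and Lats1, and with the exon length correction r of Yap1 and Lats1 was 0.665 with an adjusted p of 0.336 (exact permutation test). The cause was not tested. No paired analysis was possible because the labels give no pairing of the hearts. The replicate number 5, which both groups hold, is not stated to mark a pair. With 3 hearts in a group, the intervals of the 10 genes allow changes of up to 0.84 on the log2 scale (Tead1).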
